A study of Mus musculus with 4 samples.

Results

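Corticosteroid signalling in the mouse hippocampus is described here through 7 genes, chosen by symbol and each found on 1 line of the gene tables of all 4 libraries, out of 32285 genes listed. They are the receptors Nr3c1 and Nr3c2, the target genes Fkbp5, Zbtb16, Sgk1 and Tsc22d3, and the ligand-activating enzyme Hsd11b1. The measurement was single-nucleus RNA sequencing of snap-frozen hippocampus with the 10x 3' kit, 1 library per group. All mice were female C57BL/6J, 8 weeks old at the start. The groups were APPNL-G-F knock-in mice with exercise, APPNL-G-F mice without exercise, wild-type (WT) mice with exercise and WT mice without exercise, called exercised and unexercised below. APPNL-G-F mice carry familial Alzheimer mutations and a humanised amyloid-beta stretch in the mouse's own App gene, so the mutant protein is made wherever App is active, and a 3' count cannot check that genotype. The protocol text names a 10-week running wheel for every sample, so the exercise label rests on the titles. How many mice gave each library is not stated.

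Corticosterone, the main glucocorticoid of the mouse, acts in the brain through a pair of nuclear receptors. The mineralocorticoid receptor, encoded by Nr3c2, binds it tightly and is largely occupied at resting hormone levels, whereas the glucocorticoid receptor, encoded by Nr3c1, binds it less tightly and fills at the daily peak and under stress. Bound receptors leave a chaperone complex, enter the nucleus and act on target genes such as Fkbp5 and Sgk1. The hippocampus is known for holding both receptors in its principal neurons.

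The libraries held 8745, 9278, 6508 and 10213 nuclei after filters in exercised knock-in, unexercised knock-in, exercised WT and unexercised WT, out of 7203 to 11514 barcodes, at a median of 5083 to 7360.0 unique transcript counts (UMIs) per nucleus. The 14 classes compared were named from marker genes, so that a granule neuron below is a granule neuron-like nucleus by its markers, and the 7 members and all further lists were left out of the clustering. Pairs of libraries shared 14 to 28 of the kept barcodes, and 6.06% to 11.2% of nuclei stayed unnamed. Clusters differed between libraries within a class. Of granule neurons, 95.4% in exercised knock-in lay in cluster 2 and 71.3% in unexercised knock-in in cluster 5, whereas cluster 0 held 83.4% in exercised WT and 75.7% in unexercised WT. Of oligodendrocytes, 96.9% in exercised knock-in lay in cluster 7 and 92.0% in unexercised knock-in in cluster 8, whereas cluster 6 held 90.8% in exercised WT and 89.9% in unexercised WT. CA3 neurons were spread over clusters 1, 28, 29, 31, 34 and 36, of which cluster 28 held 70.7% of those in exercised knock-in and cluster 31 held 55.6% of those in unexercised knock-in. A small class that held perivascular macrophage markers was kept apart from microglia; it also held 8 of 9 microglial markers and high inhibitory neuron markers, and its levels are drawn but not described. Levels are given as UMIs per 1000000 UMIs of the class (CPM). Choroid plexus RNA also differed, and its marker Ttr over all kept nuclei stood at 0.436 in exercised and 207 in unexercised knock-in, 2.84 in exercised and 5.82 in unexercised WT CPM. Ratios are on the log2 scale with exact 95% intervals in parentheses, which cover counting error only. With 1 library per group there is no replicate check and no test, and differences between mice, dissections and libraries cannot be told apart from those of genotype and exercise.

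Nr3c1, the glucocorticoid receptor gene (ENSMUSG00000024431, chromosome 18, 39410545 to 39519421, minus strand, GRCm38), was highest in vascular and glial nuclei and lowest in CA3 and CA2 neurons. In endothelial and mural cells it stood at 172 in exercised and 188 in unexercised knock-in, 234 in exercised and 199 in unexercised WT CPM. Microglia held 178 in exercised and 248 in unexercised knock-in, 262 in exercised and 223 in unexercised WT CPM, and these ranges overlapped. The microglial value depended on which nuclei were named microglia: its median over the 4 libraries, 236 CPM, was 101 CPM with at least 1000 genes per nucleus. Oligodendrocytes, oligodendrocyte precursors and astrocytes had medians of 154, 149 and 163 CPM. Endothelial and mural cells were apart from astrocytes (108 to 167 CPM), but overlapped oligodendrocytes (143 to 176 CPM) and their precursors (118 to 182 CPM). Among neurons the median was 110.5 CPM in deep-layer excitatory neurons, 107 in CA1, 91.1 in subicular neurons and 93.8 in Cajal-Retzius cells, with overlapping ranges. Granule neurons (60.5 to 70.3 CPM) were apart from inhibitory neurons (40.4 to 47.5 CPM), which were apart from CA3 neurons (25.9 to 32.0 CPM). CA2 neurons were lowest, at 22.0 in exercised and 24.0 in unexercised knock-in, 26.7 in exercised and 22.7 in unexercised WT CPM, but their range overlapped that of CA3.

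Nr3c2, the mineralocorticoid receptor gene (ENSMUSG00000031618, chromosome 8, 76899442 to 77245012, plus strand), ran nearly the other way. CA2 neurons were highest and apart from all other classes, with 2289.9 in exercised and 2095 in unexercised knock-in, 2250.4 in exercised and 2146 in unexercised WT CPM. That level depended on how finely nuclei were divided: at a Leiden resolution of 2.0 the CA2 class held 212 in place of 388 nuclei, with a median of 1056 CPM, and no CA2 class was found with at least 1200 UMIs or 1000 genes per nucleus. Granule neurons stood at 1151 in exercised and 1237 in unexercised knock-in, 1443 in exercised and 1287 in unexercised WT CPM, and their range overlapped those of CA3 (1126 to 1248) and CA1 neurons (1009.6 to 1314). Oligodendrocytes had the lowest median, 320.4 CPM, and stood at 598 in exercised and 204 in unexercised knock-in, 317 in exercised and 324 in unexercised WT CPM. Exercised knock-in was highest and unexercised knock-in lowest in that class, from 2502, 450, 406 and 892 UMIs in the same order. Over the 56 points of 14 classes and 4 libraries, log2(CPM + 1) of Nr3c1 and Nr3c2 had a Pearson r of -0.67; points of 1 library share its RNA and depth, so this is a description. Reads of Nr3c2 and of the short genes annotated inside it (Gm23260 on its strand, Gm10649 and Gm24838 on the other) cannot be told apart here, because strand use in the counting is not given.

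**Figure D1:**
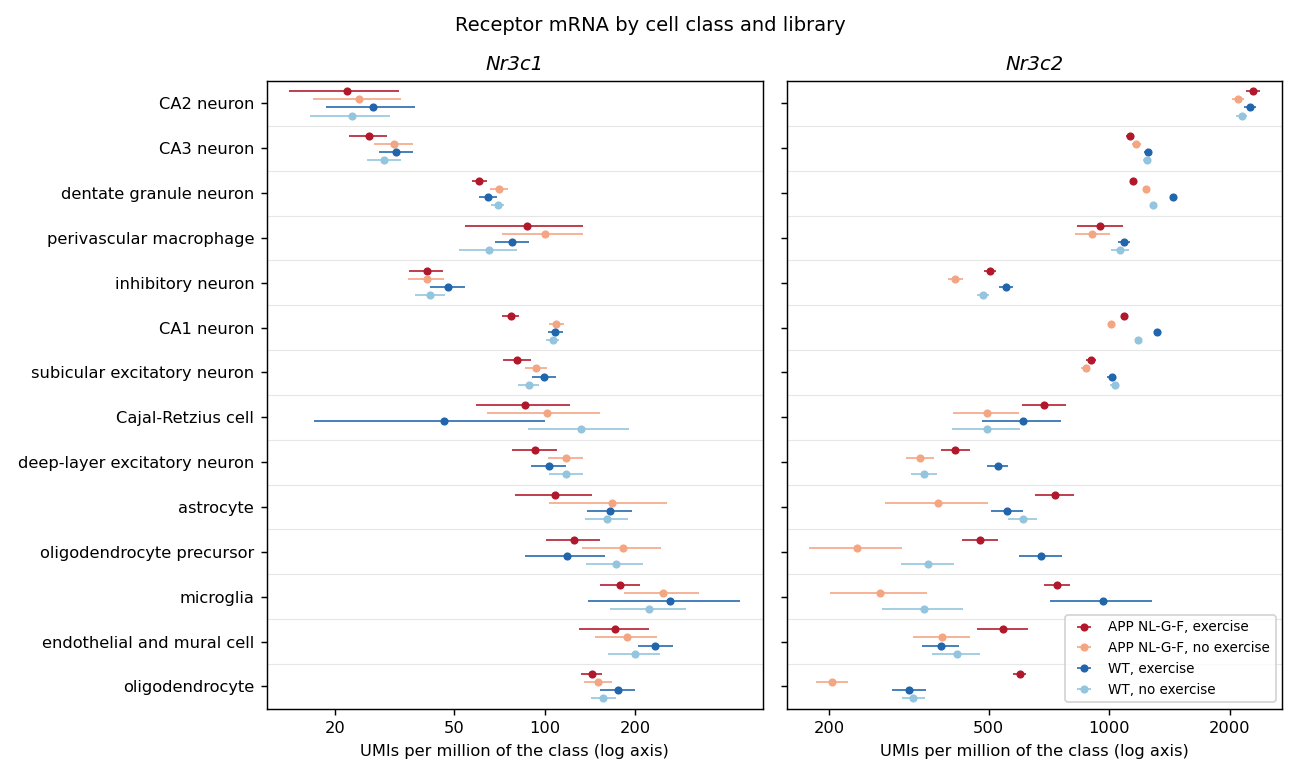
Level of Nr3c1 and Nr3c2 (CPM, log axis) in each cell class and library; points are libraries and bars exact Poisson 95% intervals. Nr3c1 was highest in microglia and in endothelial and mural cells and lowest in CA2 neurons, and Nr3c2 was highest in CA2 neurons.

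Classes held subtypes that differed in receptor level. Among inhibitory neurons, Nr3c2 stood at 367 in exercised and 244 in unexercised knock-in, 409 in exercised and 330.4 in unexercised WT CPM in the medial ganglionic eminence type, which holds the Pvalb and Sst interneurons. In the caudal ganglionic eminence type, which holds the Vip interneurons, it stood at 695 in exercised and 668 in unexercised knock-in, 809 in exercised and 759 in unexercised WT CPM, higher in each library. CA1 neurons fell into cluster 3, with 861 in exercised and 849.6 in unexercised knock-in, 960.2 in exercised and 954 in unexercised WT CPM of Nr3c2, and cluster 4. Cluster 4 held 1317 in exercised and 1232 in unexercised knock-in, 1584 in exercised and 1479.6 in unexercised WT CPM, and the clusters did not overlap. The subicular clusters were further apart, at 1025 in exercised and 1056 in unexercised knock-in, 1202 in exercised and 1183 in unexercised WT CPM in cluster 9. Cluster 13 held 509 in exercised and 319 in unexercised knock-in, 413 in exercised and 495 in unexercised WT CPM.

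The balance of the receptors was compared between classes as log2 of Nr3c2 UMIs over Nr3c1 UMIs, which is not a ratio of RNA amounts because the genes differ in length and capture. Its median over libraries was 6.50 in CA2, 5.35 in CA3 and 4.23 in granule neurons, and the ranges of these 3 classes did not overlap each other or those of any other class. The CA2 value was 4.31 at a Leiden resolution of 2.0. Inhibitory neurons (3.54), CA1 neurons (3.54) and subicular neurons (3.41) followed, then Cajal-Retzius cells (2.64), deep-layer neurons (1.86) and astrocytes (1.83), and last oligodendrocyte precursors (1.48), microglia (1.25), endothelial and mural cells (1.05) and oligodendrocytes (0.95). Within granule neurons the balance was 4.25 (4.16 to 4.33) in exercised and 4.14 (4.04 to 4.24) in unexercised knock-in, 4.48 (4.38 to 4.58) in exercised and 4.21 (4.13 to 4.29) in unexercised WT. Exercised WT was thus highest, and the other 3 intervals overlapped. In CA1 neurons it was 3.82 (3.72 to 3.92) in exercised and 3.21 (3.12 to 3.29) in unexercised knock-in, 3.60 (3.51 to 3.68) in exercised and 3.47 (3.40 to 3.54) in unexercised WT, highest in exercised knock-in and lowest in unexercised knock-in, and these intervals did not meet. In oligodendrocytes it was 2.06 (1.93 to 2.19) in exercised and 0.43 (0.23 to 0.64) in unexercised knock-in, 0.85 (0.61 to 1.09) in exercised and 1.05 (0.88 to 1.22) in unexercised WT, the widest spread of a class with over 1000 nuclei.

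**Figure D2:**
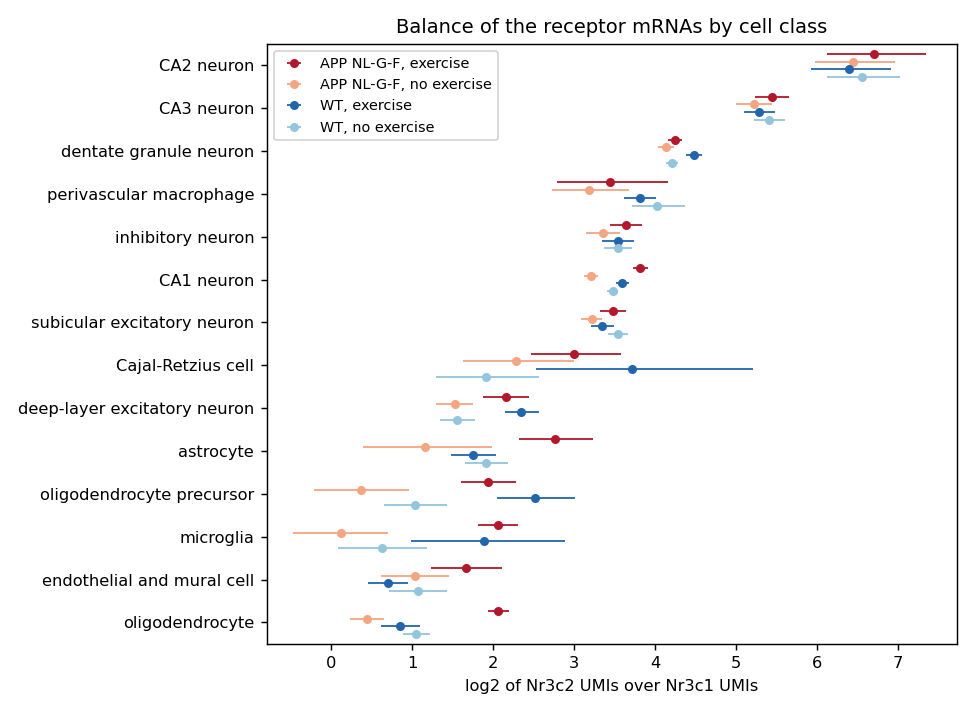
log2 of Nr3c2 UMIs over Nr3c1 UMIs in each class and library, with exact 95% intervals. CA2, CA3 and granule neurons had the highest values and oligodendrocytes the widest spread among the large classes, 0.43 to 2.06.

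Nuclei thinned to 1500 UMIs were compared for the share with at least 1 UMI of each receptor. For Nr3c2 the share of granule neurons was 76.5% in exercised and 76.7% in unexercised knock-in, 80.7% in exercised and 80.0% in unexercised WT. In oligodendrocytes, the class with the lowest level, the share was 57.2% in exercised and 22.1% in unexercised knock-in, 34.1% in exercised and 36.7% in unexercised WT. Granule neurons were thus above oligodendrocytes in each library. Thinning left out nuclei under 1500 UMIs, which were 5 of 1422 oligodendrocytes in exercised knock-in and 985 of 1505 in unexercised knock-in, 172 of 688 in exercised WT and 266 of 1467 in unexercised WT, so the thinned shares rest on different parts of the class. Without thinning the granule share was 98.5% in exercised and 94.8% in unexercised knock-in, 97.9% in exercised and 97.9% in unexercised WT. The unthinned share of oligodendrocytes was 78.5% in exercised and 23.1% in unexercised knock-in, 38.7% in exercised and 41.9% in unexercised WT. Median depths were 6782 in exercised and 4589.5 in unexercised knock-in, 6759 in exercised and 6179 in unexercised WT UMIs in granule neurons. Oligodendrocytes had median depths of 2805 in exercised and 1351 in unexercised knock-in, 1738 in exercised and 1792 in unexercised WT UMIs, lower in each library. For Nr3c1 the thinned share of granule neurons was 9.39% in exercised and 9.23% in unexercised knock-in, 8.42% in exercised and 9.79% in unexercised WT, and the unthinned share 32.7% in exercised and 27.2% in unexercised knock-in, 33.4% in exercised and 33.2% in unexercised WT. The thinned share of endothelial and mural cells was 20.3% in exercised and 30.8% in unexercised knock-in, 25.0% in exercised and 24.2% in unexercised WT. CA2 neurons, the class with the lowest level and median depths of 15911 in exercised and 11674.5 in unexercised knock-in, 17087 in exercised and 15027 in unexercised WT UMIs, had 4.84% in exercised and 4.24% in unexercised knock-in, 3.90% in exercised and 2.31% in unexercised WT. Endothelial and mural cells were above and CA2 neurons below granule neurons in each library. Nuclei with Nr3c1 and no Nr3c2 UMI made up the following share of oligodendrocytes after thinning, 8.40% in exercised and 12.7% in unexercised knock-in, 15.3% in exercised and 10.6% in unexercised WT. In granule neurons the same share was 2.04% in exercised and 2.16% in unexercised knock-in, 1.99% in exercised and 2.01% in unexercised WT, lower in each library. It was found in 0 CA2 neurons of 62, 118, 77 and 130 in exercised knock-in, unexercised knock-in, exercised WT and unexercised WT, which by a limit of 3 counts allows shares of up to 4.84%, 2.54%, 3.90% and 2.31%. The share of CA1 neurons with both receptors was 8.02% in exercised and 10.9% in unexercised knock-in, 10.6% in exercised and 10.6% in unexercised WT.

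Zbtb16, which encodes the zinc-finger transcription factor PLZF (ENSMUSG00000066687, chromosome 9, 48654297 to 48836222, minus strand), was found in every class, and the 4 libraries took the same order in most of them. Granule neurons stood at 542 in exercised and 241 in unexercised knock-in, 306 in exercised and 343 in unexercised WT CPM, from 10716, 3002, 4230 and 6822 UMIs in the same order. CA1 neurons stood at 461 in exercised and 192 in unexercised knock-in, 295 in exercised and 311 in unexercised WT CPM. Oligodendrocytes stood at 345 in exercised and 103 in unexercised knock-in, 155 in exercised and 263 in unexercised WT CPM. Exercised knock-in was highest and unexercised knock-in lowest in each, with both WT libraries between them. The same order held in 12 of the 14 classes. Over the 7 classes counted further below it held in 6, whereas 21.1% of all gene values over those 7 classes had it. In endothelial and mural cells exercised WT was lowest, at 123 CPM beside 126 CPM in unexercised knock-in. Microglia, at 227 in exercised and 55.6 in unexercised knock-in, 20.2 in exercised and 55.9 in unexercised WT CPM, also had exercised WT lowest. That exercised WT value is the level of 1 UMI, from 25 nuclei, so the order of the low libraries in microglia is not resolved. Medians by class ran from 419.7 CPM in CA2 neurons to 55.7 CPM in microglia, and no neighbours in that order were apart.

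In granule neurons the log2 ratio of Zbtb16 was 1.17 (1.11 to 1.23) for exercised over unexercised knock-in, and 6.74% of all genes measured had a ratio at least as high. It was 0.83 (0.77 to 0.88) for knock-in over WT with exercise, -0.51 (-0.58 to -0.45) for knock-in over WT without exercise, and -0.17 (-0.22 to -0.11) for exercised over unexercised WT. For exercised over unexercised knock-in the ratio was also 1.27 (1.20 to 1.34) in CA1, 1.26 (1.15 to 1.38) in CA3 and 1.35 (1.23 to 1.47) in inhibitory neurons, and 1.75 (1.55 to 1.96) in oligodendrocytes. The granule nuclei that shared cluster 0, of which exercised knock-in had 102, showed the same order, with 525 in exercised and 248 in unexercised knock-in, 306 in exercised and 346 in unexercised WT CPM. Oligodendrocyte nuclei that shared cluster 6, of which exercised knock-in had 44, stood at 270.0 in exercised and 70.6 in unexercised knock-in, 158 in exercised and 256 in unexercised WT CPM, again in that order. Each inhibitory subtype did too, for example the caudal type with 636 in exercised and 270.3 in unexercised knock-in, 394 in exercised and 450.2 in unexercised WT CPM. After thinning, the share of granule neurons with a Zbtb16 UMI was 53.4% in exercised and 28.4% in unexercised knock-in, 35.2% in exercised and 37.0% in unexercised WT. Microglia, the class with the lowest level, had 21.3% in exercised and 5.88% in unexercised knock-in, 0 of 13 nuclei, which by a limit of 3 counts allows a share of up to 23.1%, in exercised WT, and 9.21% in unexercised WT, at median depths of 2605 in exercised and 1255.5 in unexercised knock-in, 1508 in exercised and 1646.5 in unexercised WT UMIs. Without thinning the granule shares were 92.7% in exercised and 61.7% in unexercised knock-in, 77.8% in exercised and 79.9% in unexercised WT.

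Several other measures also differed between libraries, and not all of them set the same library apart. In granule neurons the Spearman correlation across genes between gene length and the log2 ratio of exercised over unexercised knock-in was 0.28, and in oligodendrocytes 0.55 (genes are not independent replicates). For knock-in over WT it was -0.28 in granule neurons and -0.51 in oligodendrocytes without exercise. With exercise it was 0.059 and 0.32 in the same order. Zbtb16 spans 181926 bases. Nr3c2, which spans 345571 bases, had a granule ratio of -0.10 for exercised over unexercised knock-in. In oligodendrocytes its level was 2.94-fold higher in exercised than in unexercised knock-in. Summed markers of inhibitory neurons in granule nuclei stood at 228 in exercised and 113 in unexercised knock-in, 93.3 in exercised and 142 in unexercised WT CPM, highest in exercised knock-in. Granule markers in CA1 nuclei stood at 279.5 in exercised and 144 in unexercised knock-in, 112 in exercised and 151 in unexercised WT CPM, highest in the same library, and exercised WT was lowest in both sums. Zbtb16 in the inhibitory neurons themselves was at 398 in exercised and 157 in unexercised knock-in, 236 in exercised and 239.7 in unexercised WT CPM, lower in each library than in granule neurons. In their caudal type, given above, Zbtb16 was instead higher in each library than in granule neurons. Malat1, an abundant nuclear RNA, stood over all kept nuclei at 33521 in exercised and 95616 in unexercised knock-in, 60496 in exercised and 32211 in unexercised WT CPM, highest in unexercised knock-in, where Zbtb16 was lowest. With Malat1, mitochondrial genes and the 50 highest genes left out of the total, the granule ratio of Zbtb16 for exercise in knock-in was 1.04. The part of gene length and of shared RNA in the result was not tested.

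Fkbp5 encodes FKBP51, a co-chaperone that lowers the hormone binding of the glucocorticoid receptor and is itself induced by it (ENSMUSG00000024222, chromosome 17, 28399094 to 28517527, minus strand). Its median was highest in microglia (242 CPM), CA2 neurons (185 CPM) and granule neurons (131 CPM). The microglial median was 121 CPM with no doublets left out, and the CA2 median 62.3 CPM at a Leiden resolution of 2.0. Granule neurons stood at 149.8 in exercised and 111 in unexercised knock-in, 119.6 in exercised and 142 in unexercised WT CPM, apart from CA2 neurons above them (161 to 290.2 CPM) and from CA3 neurons below (70.3 to 103 CPM). The classes below overlapped their neighbours, down to astrocytes, where the UMIs were 33, 1, 19 and 39 in exercised knock-in, unexercised knock-in, exercised WT and unexercised WT. In oligodendrocytes Fkbp5 stood at 101 in exercised and 43.4 in unexercised knock-in, 43.7 in exercised and 102 in unexercised WT CPM. There exercised knock-in and unexercised WT were alike and high, and the other two libraries were alike and low. CA1 neurons showed the same split in weaker form, at 90.5 in exercised and 54.1 in unexercised knock-in, 59.9 in exercised and 72.6 in unexercised WT CPM. Fkbp5 reads cannot be told apart from those of the overlapping AC154912.5, AC154912.3, AC154912.1 and Gm22146, since strand use is not given.

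The oligodendrocyte log2 ratio of Fkbp5 was 1.21 (0.89 to 1.55) for exercise in knock-in and -1.22 (-1.67 to -0.81) for exercise in WT. Between genotypes it was 1.21 (0.80 to 1.64) with exercise and -1.23 (-1.58 to -0.89) without. Of all genes measured there, 1.88% had a ratio at least as low for genotype without exercise. That share holds for this comparison only. For exercise in knock-in, 9.10% of genes had a ratio at least as high as the 1.25 of Per1 in oligodendrocytes. These values moved with the naming of nuclei: over the alternatives tried, exercise in WT ran from -1.45 to -0.24 and genotype with exercise from 0.49 to 1.45. In the oligodendrocyte nuclei of cluster 6 alone Fkbp5 stood at 92.6 in exercised and 53.0 in unexercised knock-in, 38.7 in exercised and 106 in unexercised WT CPM. Granule neurons had smaller ratios, 0.43 (0.34 to 0.53) for exercise in knock-in and -0.25 (-0.34 to -0.16) in WT. In endothelial and mural cells, with 69, 34, 193 and 125 nuclei in exercised knock-in, unexercised knock-in, exercised WT and unexercised WT, Fkbp5 stood at 151 in exercised and 59.1 in unexercised knock-in, 29.6 in exercised and 57.8 in unexercised WT CPM. The ratio of knock-in over WT with exercise there was 2.35 (1.66 to 3.07), and 0.322% of genes had a ratio at least as high; the summed endothelial markers of those nuclei were 4363 CPM in exercised knock-in and 7713 CPM in exercised WT, and their part in the result was not tested. The share of granule neurons with a Fkbp5 UMI was 19.1% in exercised and 15.2% in unexercised knock-in, 14.9% in exercised and 19.4% in unexercised WT after thinning. Without thinning it was 56.0% in exercised and 38.1% in unexercised knock-in, 48.8% in exercised and 52.8% in unexercised WT. Astrocytes, the class with the lowest level and median depths of 3154 in exercised and 1723 in unexercised knock-in, 2194 in exercised and 2348 in unexercised WT UMIs, had thinned shares of 9.01% in exercised and 2% in unexercised knock-in, 2.96% in exercised and 4.94% in unexercised WT.

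Sgk1 encodes a serum- and glucocorticoid-regulated kinase that acts on ion channels and transporters (ENSMUSG00000019970, chromosome 10, 21882184 to 21999903, plus strand). RefSeq promoter windows, from 250 bases before to 50 after a start site, were searched for Nr3c2, Fkbp5, Sgk1, Tsc22d3 and Hsd11b1 (12 windows). Zbtb16 had no matched window and Nr3c1 was left out, so neither was searched. Of the 5 members searched, Sgk1 alone held the palindrome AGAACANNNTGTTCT, the canonical receptor-binding element. Sgk1 also had more windows than any other member, so more of its sequence was searched. This palindrome was searched on both strands and was found in 3 of 32851 windows of all genes. The stretch is shown because it carries that match, in capitals, beginning 189 bases before the start site (RefSeq, GRCm38.p6, chr10:21993641-21993775, plus strand).
Sgk1: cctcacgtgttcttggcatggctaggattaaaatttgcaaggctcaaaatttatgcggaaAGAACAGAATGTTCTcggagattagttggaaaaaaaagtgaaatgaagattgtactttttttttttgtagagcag
The 6-base element AGAACA, which lies within the palindrome, was found in 19.0% of all windows, and in 3 Sgk1 windows and 1 Tsc22d3 window. A match is a string of letters and not a measured binding site.

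By median Sgk1 was highest in oligodendrocyte precursors, at 228 in exercised and 182 in unexercised knock-in, 159 in exercised and 238 in unexercised WT CPM. CA3 neurons followed and overlapped them, with 233 in exercised and 175 in unexercised knock-in, 214 in exercised and 185 in unexercised WT CPM, and within them cluster 1 held 51.7 to 79.7 CPM and cluster 28 held 249.7 to 272 CPM. CA1 neurons (122 to 137 CPM) were apart from subicular (85.4 to 114 CPM) and deep-layer neurons (83.1 to 114 CPM). Granule neurons were near the low end, at 81.4 in exercised and 43.1 in unexercised knock-in, 58.2 in exercised and 48.3 in unexercised WT CPM, with exercised knock-in above the other libraries. The granule ratio of exercised over unexercised knock-in was 0.92 (0.78 to 1.06), and that of exercised over unexercised WT was 0.27 (0.13 to 0.41). CA1 neurons had 0.09 (-0.015 to 0.19) and -0.013 (-0.11 to 0.081) in these comparisons. In oligodendrocytes exercised WT was lowest, with 120.2 in exercised and 152 in unexercised knock-in, 83.5 in exercised and 152 in unexercised WT CPM, and the ratio for exercise in WT was -0.86 (-1.18 to -0.55); at a Leiden resolution of 2.0 it was 0.081.

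Tsc22d3 encodes GILZ, an anti-inflammatory leucine-zipper protein induced by glucocorticoids (ENSMUSG00000031431, chromosome X, 140539528 to 140600659, minus strand). Its median was highest in oligodendrocytes, endothelial and mural cells and astrocytes. Oligodendrocytes stood at 135 in exercised and 105 in unexercised knock-in, 157 in exercised and 189 in unexercised WT CPM. Endothelial and mural cells held 38.5 in exercised and 69.4 in unexercised knock-in, 80.4 in exercised and 165 in unexercised WT CPM. Astrocytes held 62.1 in exercised and 55.7 in unexercised knock-in, 62.6 in exercised and 104 in unexercised WT CPM. Astrocytes were apart from microglia (0 to 35.4 CPM), and every neuronal class but Cajal-Retzius cells lay at or under 5 CPM. Oligodendrocyte precursors, with a median of 3.08 CPM from few UMIs, were about as low as those neurons. Unexercised WT was highest in all 3 leading classes. In oligodendrocytes the ratio was -0.85 (-1.07 to -0.62) for genotype without exercise and -0.22 (-0.45 to 0.023) with exercise, -0.27 (-0.51 to -0.028) for exercise in WT and 0.36 (0.14 to 0.59) in knock-in. After thinning, the share of oligodendrocytes with a Tsc22d3 UMI was 17.4% in exercised and 13.7% in unexercised knock-in, 21.7% in exercised and 23.9% in unexercised WT. Without thinning it was 29.4% in exercised and 13.3% in unexercised knock-in, 23.3% in exercised and 27.1% in unexercised WT. Thinned granule neurons had 0.519% in exercised and 0.668% in unexercised knock-in, 0.314% in exercised and 0.402% in unexercised WT, far below oligodendrocytes in each library.

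Hsd11b1 encodes the enzyme that regenerates active corticosterone inside cells (ENSMUSG00000016194, chromosome 1, 193221634 to 193264075, minus strand). Astrocytes were highest and apart from all other classes, with 25.3 in exercised and 79.6 in unexercised knock-in, 45.8 in exercised and 66.1 in unexercised WT CPM, but from only 11, 10, 38 and 61 UMIs in the same order. The astrocyte ratio of exercised over unexercised knock-in was -1.65 (-3.03 to -0.26), a width that leaves its size unresolved. CA3 neurons came next, with 14.3 in exercised and 8.99 in unexercised knock-in, 9.31 in exercised and 9.27 in unexercised WT CPM, and within them cluster 28 held 15.9 to 27.2 CPM and cluster 1 held 1.80 to 6.51 CPM. Granule neurons held 2.12 in exercised and 2.64 in unexercised knock-in, 1.30 in exercised and 2.97 in unexercised WT CPM, from 42, 33, 18 and 59 UMIs. Exercised WT was lowest there, with a ratio of -1.19 (-2.04 to -0.41) over unexercised WT. Hsd11b1 reads cannot be told apart from those of the overlapping Gm38118, 4930570N18Rik and Lamb3, since strand use is not given.

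**Figure D3:**
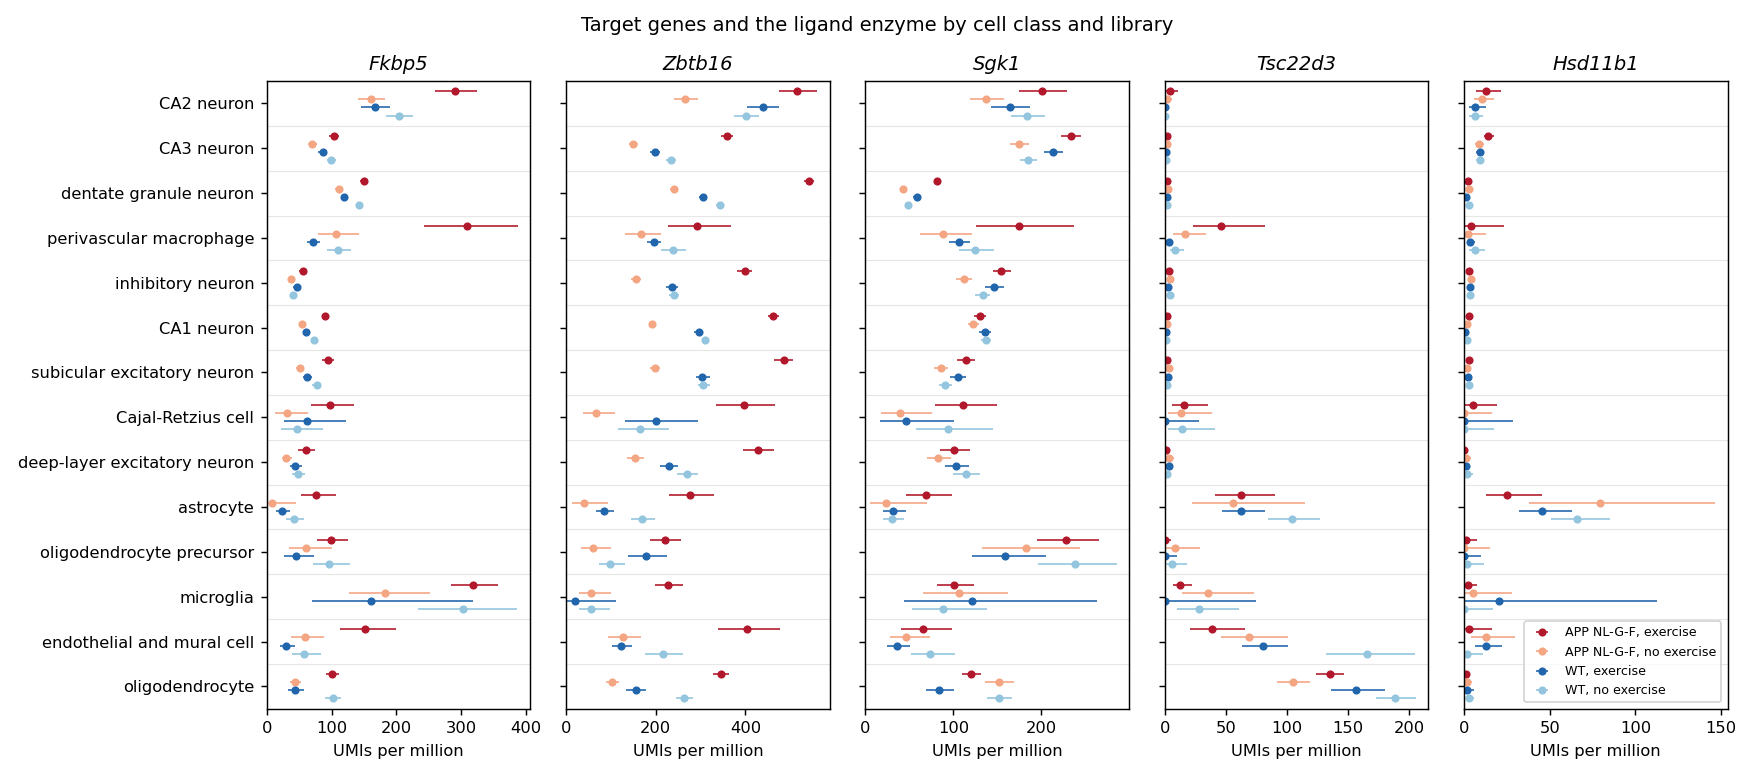
Level (CPM) of Zbtb16, Fkbp5, Sgk1, Tsc22d3 and Hsd11b1 in each class and library, with exact Poisson 95% intervals. Exercised knock-in was the highest library for Zbtb16 across neurons, Tsc22d3 was highest in oligodendrocytes and Hsd11b1 in astrocytes.

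The 4 target genes were counted over 7 classes (the granule, CA1, CA3 and inhibitory neurons and the oligodendrocytes, microglia and astrocytes). Each gene and class with at least 20 UMIs over both libraries gave 1 value, called where it differed at least 1.5-fold. With exercise in knock-in, 13 of 27 target values were higher and 0 lower, beside 25.8% and 20.5% of all gene values. Zbtb16 made 7 of the 13, 1 in each class, Fkbp5 made 4 and Sgk1 made 2. With exercise in WT, 0 of 25 were higher and 8 lower, beside 4.95% and 12.4% of all values; the 8 were 2 of Zbtb16, 3 of Fkbp5, 1 of Sgk1 and 2 of Tsc22d3. For knock-in over WT with exercise, 13 of 26 were higher and 0 lower, beside 26.2% and 11.1%. For knock-in over WT without exercise, 1 of 27 was higher and 10 lower, beside 15.6% and 14%; the 10 were 5 of Zbtb16, 3 of Fkbp5 and 2 of Tsc22d3. With each library clustered on its own, 1 library had no oligodendrocyte class and 1 no astrocyte class, which gave fewer values. The higher counts were then 8 of 20 for exercise in knock-in (2 lower) and 6 of 19 for genotype with exercise (0 lower). The lower counts were 1 of 18 for exercise in WT (0 higher) and 2 of 20 for genotype without exercise (3 higher). The share of all gene values is not given for this setting. Beside the shares above, these lower counts were below 12.4% and 14%, and 6 of 19 was little above 26.2%.

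Without astrocytes and microglia, the classes with the fewest UMIs, 8 of 20 target values were higher for exercise in knock-in, beside 25% of all gene values over the other 5 classes. For genotype with exercise 8 of 19 were higher, beside 25.6%. For exercise in WT 4 of 19 were lower, beside 11.9%, and for genotype without exercise 6 of 20, beside 12%. The comparisons share libraries in pairs: unexercised knock-in is below the line in one and above it in another, and exercised knock-in is above the line in both comparisons whose called values were all higher. The order with exercised knock-in highest and unexercised knock-in lowest held for Zbtb16 in 6 of 7 classes, Fkbp5 in 5 of 7, Sgk1 in 4 of 7, Nr3c2 in 2 of 7 and Hsd11b1 in 1 of 7, and for Nr3c1 and Tsc22d3 in 0 of 7, beside 21.1% of all gene values.

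Of 14 receptor values, 3 were higher and 1 lower for exercise in knock-in, beside 25.8% and 20.5% of all gene values. For exercise in WT, 1 was higher and 0 lower, beside 4.95% and 12.4%. For genotype with exercise 1 was higher and 1 lower, beside 26.2% and 11.1%, and for genotype without exercise 0 were higher and 2 lower, beside 15.6% and 14%. In granule neurons Nr3c1 had -0.22 (-0.34 to -0.089) for exercise in knock-in and -0.11 (-0.23 to 0.017) in WT. In CA1 neurons Nr3c1 stood at 77.1 in exercised and 109 in unexercised knock-in, 109 in exercised and 106 in unexercised WT CPM, lowest in exercised knock-in, with -0.50 (-0.63 to -0.38) for exercise in knock-in and -0.49 (-0.62 to -0.37) for genotype with exercise, both short of 1.5-fold. Of all CA1 genes, 21.6% and 9.30% had a ratio at least as low in these comparisons. In oligodendrocytes Nr3c2 had 1.55 (1.41 to 1.70) for exercise in knock-in, 0.92 (0.76 to 1.07) for genotype with exercise and -0.67 (-0.84 to -0.51) without. In microglia the Nr3c2 ratio for exercise in knock-in was 1.47 (1.06 to 1.90), and it was -0.026 with at least 1200 UMIs per nucleus.

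Markers of other classes moved with those oligodendrocyte values. The summed level of 5 caudal interneuron markers in oligodendrocyte nuclei was 508 in exercised and 158 in unexercised knock-in, 155 in exercised and 244 in unexercised WT CPM with all 5 detected. That of 7 CA3 markers, of which exercised WT had 6 and the other libraries 7, was 312 in exercised and 145 in unexercised knock-in, 188 in exercised and 211 in unexercised WT CPM. Exercised knock-in was highest in both. Median depth was likewise highest there, with 2805 in exercised and 1351 in unexercised knock-in, 1738 in exercised and 1792 in unexercised WT UMIs. Their part in the result was not tested. Microglia were uneven too, with 291, 124, 25 and 122 nuclei in exercised knock-in, unexercised knock-in, exercised WT and unexercised WT. The 9 microglial markers summed to 4274 in exercised and 6341 in unexercised knock-in, 7017 in exercised and 7191 in unexercised WT CPM, lowest in exercised knock-in. The summed caudal interneuron markers in astrocytes were 398 in exercised and 271 in unexercised knock-in, 143 in exercised and 210.4 in unexercised WT CPM, highest in exercised knock-in, with 115, 65, 337 and 343 nuclei in the same order. The part of these in the microglial and astrocyte values was not tested.

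**Figure D4:**
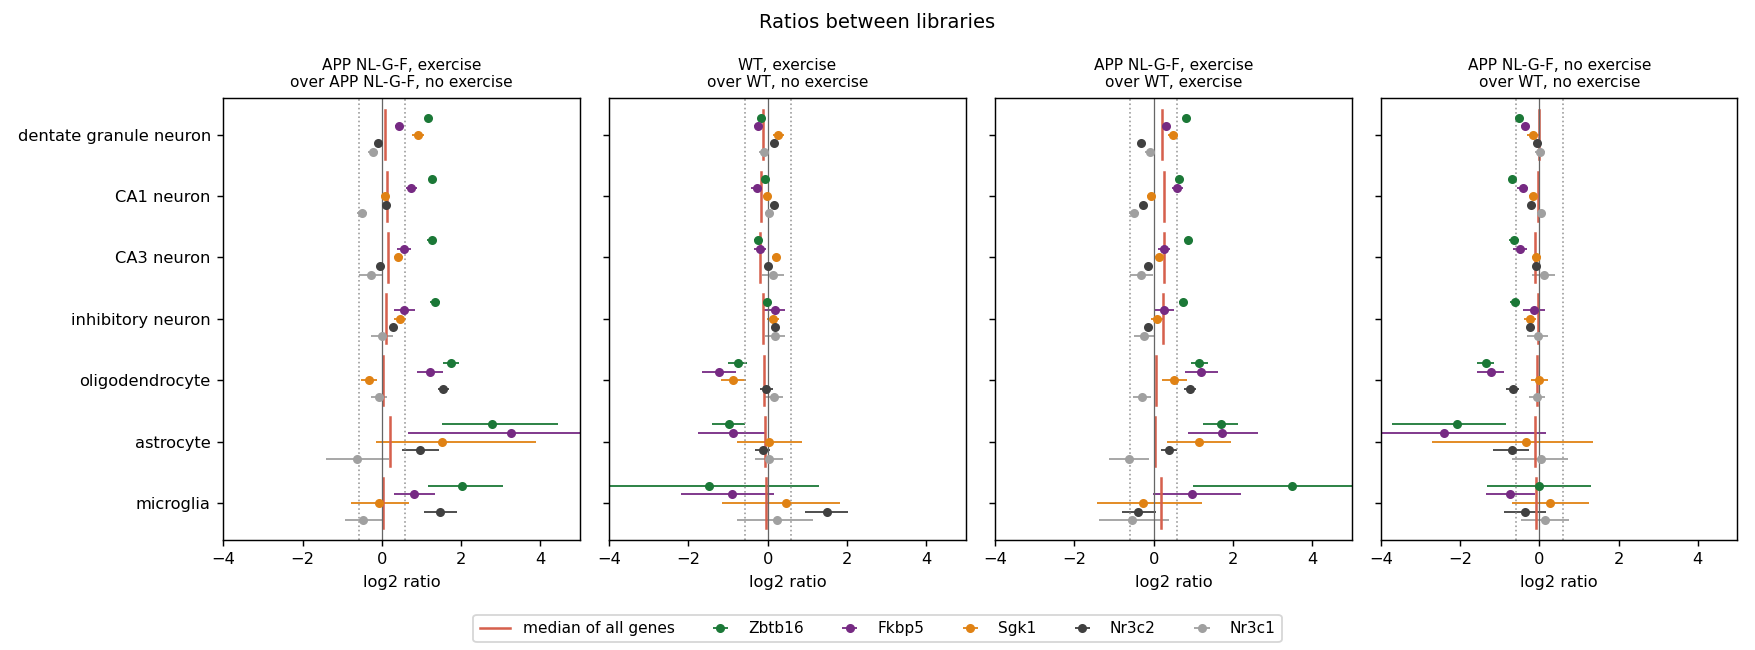
log2 ratio of Zbtb16, Fkbp5, Sgk1, Nr3c2 and Nr3c1 in 7 classes for the 4 comparisons, with exact 95% intervals; red bars are the median of all genes in the class and dotted lines mark 1.5-fold. Zbtb16 lay above 0 in every class for exercise in knock-in, and below 0 for exercise in WT in the 6 classes with at least 20 UMIs, of which CA1 and inhibitory neurons changed sign in 3 of 13 alternatives; some astrocyte and microglia intervals run past the axis.

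Further genes known to be induced by glucocorticoids, 20 in all, did not share one direction in granule neurons. The counts past 1.5-fold were 4 higher and 5 lower of 18, median 0.12 log2 for exercise in knock-in, 1 higher and 2 lower of 17, median -0.20 for exercise in WT, 6 higher and 1 lower of 17, median 0.33 for genotype with exercise and 5 higher and 2 lower of 17, median 0.12 for genotype without. Of all genes in granule neurons 23.1% were past 1.5-fold higher and 21.7% lower for exercise in knock-in, 4.34% and 8.3% for exercise in WT, 23.5% and 9.86% for genotype with exercise, and 16.6% and 7.92% for genotype without exercise. The medians of all genes in those comparisons were 0.073, -0.12, 0.20 and -0.0087. Per1, a clock gene with a known glucocorticoid response, stood at 21.5 in exercised and 7.29 in unexercised knock-in, 10.4 in exercised and 13.6 in unexercised WT CPM, in the order seen for Zbtb16. Klf9, a transcription factor induced by both receptors, stood at 104 in exercised and 83.5 in unexercised knock-in, 82.6 in exercised and 90.0 in unexercised WT CPM. Mt1, which encodes a metal-binding protein, ran the other way at 9.86 in exercised and 25.2 in unexercised knock-in, 14.4 in exercised and 11.2 in unexercised WT CPM. So did Cebpd, a transcription factor of acute responses, with 11.3 CPM in exercised and 28.8 CPM in unexercised knock-in. In oligodendrocytes the list had 2 higher and 10 lower of 17, median -0.85 for exercise in knock-in, beside 24.4% higher and 25.3% lower of all genes there, whose median was 0.027. The ratios of Zbtb16 and Fkbp5 had the opposite sign.

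Per1 was also highest in exercised knock-in in other neurons. In CA1 it stood at 32.5 in exercised and 16.0 in unexercised knock-in, 14.0 in exercised and 25.7 in unexercised WT CPM. CA3 neurons held 29.2 in exercised and 12.2 in unexercised knock-in, 10.6 in exercised and 18.3 in unexercised WT CPM. Inhibitory neurons held 28.8 in exercised and 11.7 in unexercised knock-in, 9.38 in exercised and 16.3 in unexercised WT CPM. In these 3 classes exercised WT was lowest, whereas unexercised knock-in was lowest in granule neurons. Of the 14 classes, 4 had the exercised knock-in highest and unexercised knock-in lowest order for Per1, and 4 had it for Klf9. Over the 7 classes counted, 2 had it for Per1 and 3 for Klf9, beside 21.1% of all gene values.

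The 11 receptor chaperones include the Hsp90 and Hsp70 proteins that hold the receptor ready for hormone. In granule neurons they had 0 higher and 4 lower of 11, median -0.32 for exercise in knock-in, beside 23.1% higher and 21.7% lower of all genes. For exercise in WT they had 0 higher and 2 lower of 11, median -0.41, beside 4.34% higher and 8.3% lower of all genes. Between genotypes, members with at least 100 UMIs ran from -0.34 (Stip1) to 0.73 (Hsp90ab1) without exercise. With exercise they ran from -0.32 (Hspa4) to 0.66 (Stip1). Hspa8, a constitutive Hsp70, stood at 28.7 in exercised and 73.4 in unexercised knock-in, 33.8 in exercised and 46.0 in unexercised WT CPM. Inhibitory neurons had 0 higher and 5 lower of 11, median -0.58 for exercise in WT, beside 3.67% higher and 10.9% lower of all genes, whose median was -0.12. Oligodendrocytes had 0 higher and 9 lower of 11, median -0.80 for exercise in knock-in, beside 24.4% higher and 25.3% lower of all genes. CA3 neurons had 9 higher and 0 lower of 11, median 0.86 for genotype with exercise, beside 27.7% higher and 7.38% lower of all genes, whose median was 0.26.

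Receptor coregulators, a list of 9 genes, had a median log2 ratio of 0.33 in granule neurons for exercise in knock-in, -0.11 for exercise in WT, 0.049 for genotype with exercise and -0.37 for genotype without. Those of all genes were 0.073, -0.12, 0.20 and -0.0087 in the same order. Smarca4, a chromatin-remodelling ATPase, stood at 146 in exercised and 79.7 in unexercised knock-in, 101 in exercised and 115 in unexercised WT CPM, in the order seen for Zbtb16. Ncoa1, a coactivator of steroid receptors, stood at 349 in exercised and 419 in unexercised knock-in, 420.2 in exercised and 416 in unexercised WT CPM and was lowest in exercised knock-in. Of 5 genes of ligand handling, 2 or 3 were measured in granule neurons and 0 were past 1.5-fold in any comparison. Of all genes there, 4.34% to 23.5% were past 1.5-fold higher and 7.92% to 21.7% lower, by comparison. With so few genes measured, a count of 0 does not show that the list was unchanged.

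Genes whose level most resembled each member were ranked by Pearson r of log2(CPM + 1) over the 56 points of class and library among 13260 genes. For Nr3c1 they were Pik3r1 (0.87), Bhlhe41 (0.86), Xiap (0.86), and for Nr3c2 Wipf3 (0.91), Ptpn3 (0.90), Nell2 (0.89). Those of Zbtb16 were Nphp4 (0.89), Epha10 (0.84), Ttll11 (0.82), those of Fkbp5 Ptprj (0.81), Cbl (0.78), Dgkd (0.76) and those of Sgk1 Bcat1 (0.76), Zmynd8 (0.73), Lrrc8d (0.71). Tsc22d3 was most like Cd82 (0.88), Glul (0.86), Neat1 (0.85), and Hsd11b1 most like A830019P07Rik (0.74), Fam107a (0.74), Map3k19 (0.71). Among the members, the pair most alike was Nr3c1 and Tsc22d3 (0.57), followed by Nr3c2 and Zbtb16 (0.51) and Nr3c2 and Fkbp5 (0.47). The points share libraries and depth, so these values describe the pattern and carry no test.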

How the data were processed

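Nuclear RNA of 4 hippocampus libraries was counted as UMIs per gene. The deposited values are raw counts, made by the authors with Cell Ranger, version 5.0.1 per the file headers and 3.1.0 per the submitters' processing notes, on mm10. Intron counting and strand use were not given in the sources used here. Library totals were 64158446 to 91676884 UMIs. The lowest barcode total was 1199 UMIs in exercised knock-in and 500 to 504 UMIs in the other libraries.

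Nuclei with at least 500 genes, 1000 UMIs and under 5% mitochondrial UMIs were kept, and the nuclei with the highest scores against simulated pairs were left out as doublets at 0.8% per 1000 nuclei (5.50% to 8.98%). All libraries were clustered together with 2000 variable genes, 30 components, 15 neighbours and Leiden resolution 1.0 (scanpy 1.11.5, leidenalg 0.10.2, scikit-learn 1.9.0, Python 3.11.15, numpy 2.4.6, scipy 1.17.1, pandas 2.3.3, matplotlib 3.10.9), leaving the members and lists out; of 10 random starts (seeds 1 to 10) the partition with the highest quality was taken. This procedure was revised after earlier clusterings of these nuclei, and results of the first, had been seen: those divided CA3, CA2 and mossy nuclei differently, and one gave no separate CA2 class. Clusters were named from 24 marker lists. Counts were summed per class and library; levels have exact Poisson intervals, ratios exact conditional binomial intervals and shares exact Clopper-Pearson intervals, all at 95% and for counting error only; a share of 0 is given with the limit of 3 counts over the nuclei instead. The code for ratios was tested on simulated data. Gene coordinates come from GENCODE M21, which matched 32235 of 32285 identifiers.

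All 7 members are named; of each further list, the text may name up to 2 genes with the highest and 2 with the lowest ratio per comparison in granule neurons with at least 100 UMIs, and Per1 and Klf9 in any class. The lists were further glucocorticoid-induced genes, receptor chaperones, receptor coregulators, ligand handling and the CRH system. Members and lists were chosen with earlier results of these data known. The alternatives changed nucleus filters, doublets, clustering, scaling, depth, weighting and the gene minimum. Some results of the coregulator list are not reported here. The open-chromatin assay named in the series' text was not used here.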

Additional observations from a re-analysis of the deposited data

Results flagged for a closer look

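The log2 ratio of exercised over unexercised mice was, with counting intervals on opposite sides of 0 and a ratio past 1.5-fold in at least 1 genotype, of opposite sign in knock-in and WT for Zbtb16 in 5 of the 7 classes counted and for Fkbp5 in 3. Each genotype gave 1 library per condition, so the difference between genotypes was not tested, and the classes share the same 4 libraries. The share of all gene values that meet this rule is not given, so whether the counts of 5 and 3 are unusual is not known. At least 1.5-fold higher for exercise in knock-in were 25.8% of all gene values, and 12.4% were lower for exercise in WT. For Zbtb16 the ratio in knock-in minus that in WT was 1.34 (1.17 in knock-in, -0.17 in WT) in granule neurons. It was 1.34 (1.27 in knock-in, -0.074 in WT) in CA1 neurons and 1.51 (1.26 in knock-in, -0.24 in WT) in CA3 neurons. In WT the median ratio of all genes was -0.12 in granule, -0.17 in CA1 and -0.19 in CA3 neurons. Zbtb16 in CA1 was thus not lower than most genes, and its sign there was kept in 10 of 13 alternatives. In granule and CA3 neurons Zbtb16 lay only slightly below these medians. Its negative sign in WT was shared with most genes there, of which 31.5% and 27.4% were above 0. The difference for Zbtb16 was 2.51 (1.75 in knock-in, -0.76 in WT) in oligodendrocytes and 3.78 (2.79 in knock-in, -0.98 in WT) in astrocytes. The astrocyte value rests on few UMIs, since 7.69% of the 65 astrocytes in unexercised knock-in held a Zbtb16 UMI.

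For Fkbp5, the difference was 1.02 (0.74 in knock-in, -0.28 in WT) in CA1 neurons and 2.44 (1.21 in knock-in, -1.22 in WT) in oligodendrocytes. In astrocytes it was 4.14 (3.25 in knock-in, -0.89 in WT), and rests on 1 UMI in unexercised knock-in.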

How the results depend on the processing

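Over 13 alternative settings, 1989 of 2259 member ratios moved by less than their counting interval, 265 moved further and 5 changed sign after being past 1.5-fold. Those were Nr3c2 in microglia for exercise in knock-in (1.47 as reported), at -0.026 with at least 1200 UMIs, -0.0059 with at least 1000 genes and -0.034 with each library clustered on its own; Sgk1 in oligodendrocytes for exercise in WT (-0.86), at 0.081 with a Leiden resolution of 2.0; and Tsc22d3 in inhibitory neurons for exercise in WT (-0.79), at 0.062 as a mean over nuclei. The ratio of Zbtb16 for exercise in knock-in kept its sign in all 7 classes under every setting run. Counts of target values, given first as reported, depended on the settings. For knock-in over WT without exercise, higher calls (1) were 3 with at least 1000 genes or each library clustered on its own, 2 with 1 clustering start (seed 11) or as a mean over nuclei, and 0 with at least 100 UMIs. Lower calls (10) were 2 with each library on its own. For exercise in WT, higher calls (0) were 1 after thinning to 1500 UMIs; lower calls (8) were 1 with each library on its own and 5 with at least 100 UMIs. For exercise in knock-in, higher calls (13) were 8 with each library on its own; lower calls (0) were 2 there and 1 with at least 1200 UMIs, resolution 2.0, 1 start (seed 11), a total without mitochondrial genes, Malat1 and the 50 highest genes, or a mean over nuclei. For genotype with exercise, higher calls (13) were 6 with each library on its own, and lower calls (0) were 1 after thinning. Leaving out astrocytes and microglia, chosen after seeing the data, gave 8 higher calls for exercise in knock-in and 8 for genotype with exercise, 4 lower for exercise in WT and 6 lower for genotype without exercise. The log2 receptor balance in CA3 (5.35) was 5.22 with 4000 variable genes and 5.20 when doublets were kept, and in CA2 (6.50) it was 4.31 at resolution 2.0. In granule neurons the total without those genes gave Zbtb16 1.04 (1.17) for exercise in knock-in, -0.10 (-0.17) for exercise in WT, 0.72 (0.83) for genotype with exercise and -0.43 (-0.51) without, and Fkbp5 0.30 (0.43) for exercise in knock-in and 0.22 (0.32) for genotype with exercise. Median-of-ratios factors gave Zbtb16 0.65 for genotype with exercise and -0.048 for exercise in WT, and Fkbp5 0.15 and -0.13; TMM factors gave Zbtb16 0.64 and -0.069, and 1.11 for exercise in knock-in, and Fkbp5 0.14 and -0.15. Thinning gave Zbtb16 1.24 for exercise in knock-in and Fkbp5 -0.41 (-0.25) for exercise in WT. The cause of these changes was not tested. The named classes depended on the clustering start: CA3, CA2 and mossy neurons numbered 2086, 388 and 103 as reported, 1494, 379 and 1394 with 1 start at seed 11, and 2662, 317 and 0 at seed 12, settings added after earlier clusterings had been seen. No paired analysis was possible because each group has 1 library. Depth limits Hsd11b1 and Tsc22d3 in most neurons, Fkbp5 and Zbtb16 in astrocytes, and Zbtb16 in microglia.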

Other observations

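The corticotropin-releasing hormone (CRH) system, which drives corticosteroid release from the brain side, was measured through 4 genes. Crhr1, the main CRH receptor of the hippocampus, stood at 23.0 in exercised and 10.0 in unexercised knock-in, 10.5 in exercised and 15.1 in unexercised WT CPM in granule neurons, with exercised knock-in highest and unexercised knock-in lowest. Its log2 ratio was 1.20 for exercise in knock-in, -0.52 for exercise in WT, 1.12 for genotype with exercise and -0.59 for genotype without. Crhr2, the second receptor, stood at 3.89 in exercised and 2.48 in unexercised knock-in, 3.03 in exercised and 3.97 in unexercised WT CPM. Of the 3 genes of the list measured in granule neurons, 2 were at least 1.5-fold higher and 1 lower for exercise in knock-in, beside 23.1% and 21.7% of all genes. There is 1 library per group, so none of these differences has a replicate check.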
